A study of Homo sapiens with 12 samples.

Results

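RNA-seq counts of LNCaP-AI/tet-MUC1shRNA cells divided into 3 samples with and 3 samples without a large set of RNAs, and this division ran across the treatment. LNCaP-AI was derived from LNCaP prostate cancer cells, by way of C4-2B, through long culture without androgens, and all samples carried a doxycycline (DOX)-inducible promoter that drives an shRNA against MUC1. The 6 samples were 3 of vehicle-treated and 3 of DOX-treated cells (500 ng/ml for 7 days), out of 12 samples in the series, the others being vehicle- and DOX-treated DU-145/tet-MUC1shRNA cells. In the labels vehicle is shCTL and DOX is shMUC1, and no DOX-treated line with a control hairpin was analysed here. Vehicle 2, vehicle 3 and DOX 1 are called the KRT81-high samples below and vehicle 1, DOX 2 and DOX 3 the KRT81-low samples, after the hair-type keratin gene that had the highest CPM among the 70 genes found in the former and nearly absent from the latter. The sets were chosen from the same counts, so every difference between them is given as a description with no test. Neither the labels nor the methods give a batch, passage or date that follows the division. The methods describe triplicate cultures, and do not say whether these were grown at separate times.

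The prostate epithelium holds luminal secretory cells, which depend on androgens and make kallikreins such as KLK3 (prostate-specific antigen), and basal cells, which rest on the basement membrane and carry the keratins KRT5 and KRT14 and the transcription factor TP63. LNCaP and its derivatives are known as luminal cells with KLK3. Basal and squamous cells of many epithelia share KRT5 and KRT6, whereas carcinoma cells that take on mesenchymal features gain matrix proteins, N-cadherin (CDH2) and factors such as SNAI2 and TWIST1. Bulk RNA does not tell apart fewer cells of a type and less RNA per cell, so a level below can come from some cells or from all of them.

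Counts per LNCaP-AI sample ranged from 16569613 to 26961777, and 16030 of 58037 genes with 10 counts or more in 3 or more of these samples were kept as tested genes. Levels are CPM, counts scaled by library size after TMM normalization of these samples, with SD over n = 3. On the first principal component, with 79.6% of the variance, the KRT81-high samples lay between 38.4 and 57.9 and the KRT81-low samples between -56.5 and -39.7, and the second, with 15.9%, parted DOX from vehicle. MUC1, the target of the shRNA, followed the treatment labels and not the division, with 36, 25 and 52 counts in vehicle 1, 2 and 3 and 8, 6 and 3 counts in DOX 1, 2 and 3. No pair of samples agreed within sampling noise, and the closest, DOX 2 and DOX 3, had a chi-square of 2.38 per degree of freedom over genes.

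Differences of 4-fold or more across the division had 1 direction, whereas smaller ones ran both ways. At least 20 CPM in each KRT81-high sample with less than 0.5 CPM in each KRT81-low sample was found for 70 genes, and the opposite pattern for 0 genes. These 70 genes held 0.521%, 0.574% and 0.457% of all counts in vehicle 2, vehicle 3 and DOX 1. In vehicle 1, DOX 2 and DOX 3 they summed to 215, 102 and 110 counts, and no member had more than 10 counts in any of these samples. Levels did not overlap between the sets for 3276 tested genes (20.4%) that were higher and 2368 (14.8%) that were lower in the KRT81-high samples. At 2-fold or more without overlap, 1438 tested genes (8.97%) were higher and 28 (0.175%) lower in the KRT81-high samples, a contrast fixed by the choice of samples. At 4-fold these were 992 and 0 genes.

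The markers KRT81, F3, SFRP1, ANPEP, KRT5, S100P and UCA1 were all among the 70. KRT81, a keratin of hair cortex that some carcinomas also make, had 11006, 22268 and 14408 counts in vehicle 2, vehicle 3 and DOX 1 and 10, 1 and 1 counts in vehicle 1, DOX 2 and DOX 3. This was 687 ± 115 CPM against 0.202 ± 0.246 CPM (SD, n = 3 each), a ratio of 3159 with a counting interval of 1808 to 6114 (exact, 95%, counting error only). F3, tissue factor, which starts blood coagulation, had 245, 234 and 215 CPM in the KRT81-high samples and 0, 0 and 2 counts in the KRT81-low samples. For both genes the ranges stood far apart, whatever the treatment of the sample.

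SFRP1, a secreted antagonist of WNT ligands, had 215, 218 and 185 CPM in the KRT81-high samples and 2, 0 and 0 counts in the others. ANPEP, a cell surface aminopeptidase (CD13), had 191, 225 and 166 CPM against 0.291, 0.06 and 0.0591 CPM. The basal keratin KRT5 had 44.8, 52.8 and 40.0 CPM and a single count, in vehicle 1, among the KRT81-low samples. S100P, a calcium-binding protein of the S100 family, was the marker with the most reads left in the KRT81-low samples, 7, 7 and 5 counts, against 795, 1306 and 938. UCA1, a long noncoding RNA named for urothelial cancer, had 42.5, 51.8 and 37.2 CPM against 0, 0 and 1 count. In the plot of levels by sample each marker shows 3 points in a narrow upper band and 3 points at or near 0, with vehicle and DOX on both levels.

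**Figure D1:**
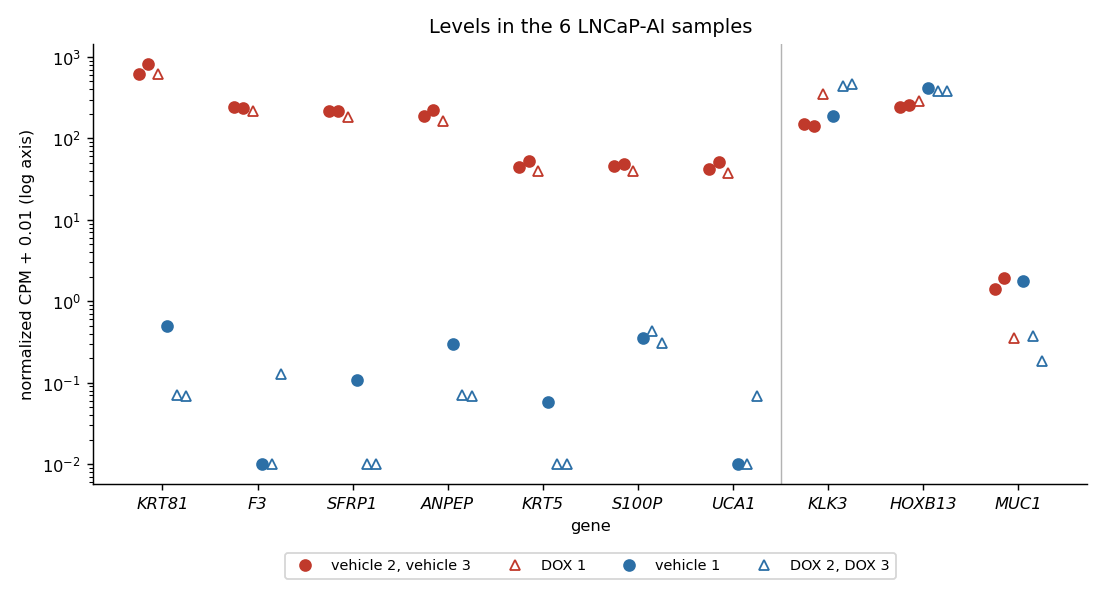
Normalized CPM + 0.01 (log axis) in each of the 6 LNCaP-AI samples for the 7 markers (left of the line) and for KLK3, HOXB13 and MUC1 (right of it), with 1 point per sample. Red points are the KRT81-high samples and blue points the KRT81-low samples, circles are vehicle and triangles DOX. The markers lie between 37.2 and 820 CPM in the red samples and under 0.5 CPM in the blue samples, whereas KLK3 and HOXB13 are present in all 6 and MUC1 follows DOX.

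Of the 70 genes, 63 had at least 1 count among the KRT81-low samples, with ratios from 73.5 to 6237 and a median of 549. The other 7 (ALDH7A1, BNC1, RUNX3, LINC03061, CXCL8, MT1E and PTGER2) had 0 counts in all 3, and were at least 126-fold to at least 305-fold higher when the KRT81-low samples were set to a floor of 3 counts per library. EHD2 (20.2 CPM in DOX 1) and PTGER2 (20.3 CPM in DOX 1) lay just inside the lower limit, and LNCAROD (19.98 CPM in DOX 1) and SERPINB1 (19.7 CPM in DOX 1) just outside it. KRT81 and EFEMP1, each with 0.485 CPM in vehicle 1, lay just inside the upper limit. LGALS1 (0.534 CPM in vehicle 1) and AREG (0.540 CPM in DOX 2) lay just outside it. AREG, an EGFR ligand, had 533, 606 and 511 CPM in the KRT81-high samples, so the limits leave out some of the strongest genes of the same pattern.

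After the markers, the members with the highest CPM included surface and secreted proteins. The complement component C3 had 151 ± 18.9 CPM against 0.164 ± 0.0404 CPM, and lipocalin LCN2, an iron-siderophore carrier, 141 ± 17.6 against 0.0521 ± 0.0489 (SD, n = 3 each). TIMP1, an inhibitor of matrix metalloproteinases, had 136 CPM against 0.0324, the GPI-anchored CD109 140 against 0.116, and the adhesion molecule MCAM 122 against 0.0683. The intermediate filament gene KRT6A, the glutathione transferase GSTP1 and the calcium-binding S100A6 had 117, 119 and 111 CPM against 0.0324, 0.0485 and 0.0362 CPM. FOSL1, an AP-1 subunit, had 116, 148 and 107 CPM against 0.243, 0.300 and 0.0591 CPM.

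Among the rest of the 25 highest were the chemokine CXCL1 (87.1 CPM), caveolin CAV1 (86.5), the transcription factor TFCP2L1 (83.8), the matrix genes TGFBI (82.1) and COL12A1 (82.0), and the hyaluronan receptor CD44 (81.9). S100A16, the scavenger receptor DMBT1, the transporter SLC43A3, PHLDB2 and the matrix protein SMOC1 closed this group, from 76.4 down to 57.0 CPM. The other 45 members had means between 21.2 and 55.4 CPM in the KRT81-high samples. They included the receptor tyrosine kinase AXL (55.4), the ectonucleotidase NT5E (47.8), the WNT antagonist DKK1 (43.3), the EGFR ligand EREG (40.2), the transcription factor SNAI2 (32.4) and the collagen-crosslinking enzyme LOXL2 (28.0).

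CPM favours long transcripts, so levels were also divided by exonic length, taken over all annotated exons of a gene together. This length can exceed that of a single transcript, which lowers the value, so the order is approximate. Per kilobase of exons KRT81 led with 356 CPM, followed by the short S100A6 (114), S100P (94.4), TIMP1 (94.0), LCN2 (88.2), F3 (80.1) and GSTP1 (67.7). S100P, TIMP1 and LCN2 lie close together in this order. C3, among the highest by CPM, had 13.0 CPM per kilobase over 11577 annotated exonic bases.

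Genes detected in all 6 samples showed the same direction. The largest ratios of genes with at least 0.5 CPM in every sample and 20 CPM on the higher side included EMP1, a membrane glycoprotein (133 CPM against 0.895, log2 difference 7.16), PEG10, an imprinted gene derived from a retrotransposon (192 against 1.22, 7.15), and TGM2, tissue transglutaminase (187 against 1.28, 7.11). PTGES, prostaglandin E synthase, had 312, 382 and 299 CPM against 2.33, 3.60 and 3.31 (log2 difference 6.74). LAMB3, a laminin beta chain, followed with 190 CPM against 1.84 (6.63), then SPTBN1 (6.10), TGFB2 (5.94) and NNMT (5.83). No gene met the same conditions in the other direction.

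In the other direction the falls were small. Of 7746 genes with a mean of at least 20 CPM in the KRT81-low samples, 0 were 2-fold lower in the KRT81-high samples and 95 were 2-fold higher. The lowest of them had a log2 difference of -0.87, or 54.5% of its level in the KRT81-low samples. The 1st and 99th percentiles were -0.62 and 1.06, and the median was -0.06. The 28 genes that were 2-fold lower had low levels, with a median of 0.871 CPM and at most 3.54 CPM in the KRT81-low samples. Without DOX 1 the lowest log2 difference was -1.12 and 1 gene passed 2-fold. In the plot of difference by level the genes found only in the KRT81-high samples lie above 6 on the log2 scale, and nothing mirrors them below the line of 0.

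**Figure D2:**
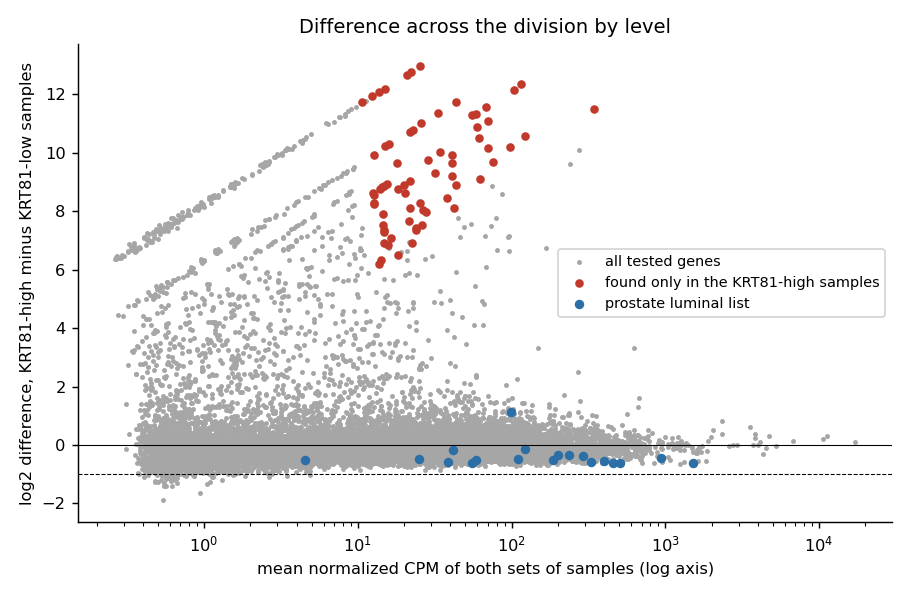
Log2 difference of the KRT81-high samples minus the KRT81-low samples, with treatment as a covariate, against the mean normalized CPM (log axis), with 1 point per tested gene (16030). Red points are the 70 genes found only in the KRT81-high samples, blue points the prostate luminal genes, and the dashed line marks a 2-fold fall. Grey points fill the range above 0, and below it no gene with 20 CPM or more in the KRT81-low samples reaches the dashed line.

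Marker lists were set beside these values to see which cell identities the genes belong to. Counts are read against the 8.97% of all tested genes that were 2-fold higher and their median log2 difference of -0.05. Some lists hold markers picked because they part these samples, and such members are higher by choice. They are KRT5 (basal and squamous), KRT81 (hair-type and basal-like breast), SFRP1 (basal-like breast), S100P and UCA1 (urothelial), ANPEP (kidney tubule) and F3 (coagulation). A gene near 0 in 1 set passes the filter only through the other set, so its direction is fixed by the filter. Of 25 tested genes of the basal and squamous epithelial list, 19 were 2-fold higher, 0 were lower and 5 were among the 70, with a median log2 difference of 4.58. The list summed to 1484.5 to 1781 CPM in the KRT81-high and 416 to 464 CPM in the KRT81-low samples. The laminin chains LAMB3 and LAMA3 were both higher, LAMA3 from 228 ± 11.8 to 481 ± 50.8 CPM (SD, n = 3 each). BNC1, a zinc-finger factor of basal keratinocytes, had 46.7, 46.0 and 40.6 CPM against 0 counts in each KRT81-low sample. KRT6A, KRT6B (30.9 CPM against 0.0559), KRT17 (12.2 against 0.02), the 14-3-3 protein SFN (54.2 against 0.584), S100A2 (42.9 against 0.349) and P-cadherin CDH3 (99.9 against 17.1) belonged to the same set.

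Other genes that define basal prostate cells were low beside KRT5, which had 44.8, 52.8 and 40.0 CPM in the KRT81-high samples. TP63 had 19, 25 and 14 counts in vehicle 2, vehicle 3 and DOX 1, or 0.866 ± 0.245 CPM, against 2, 0 and 0 counts. KRT14 had 1.14, 0.994 and 3.21 CPM in the KRT81-high samples and 1.07, 4.56 and 4.38 CPM in the KRT81-low samples, so the sets overlapped and the DOX samples were the higher ones in both. KRT15 had 0.698 CPM against 0.0162. The cornified envelope gene IVL overlapped as well, with 0.802 CPM against 1.00. KRT5, KRT6A and KRT6B were thus present without KRT14, the usual partner of KRT5, at a like level.

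Of 9 listed hair-type keratins only 2 passed the filter, KRT81 and KRT86, and both were higher. Both had enough counts only in the KRT81-high samples, so neither could have been lower. KRT86 had 1.99, 1.47 and 2.18 CPM against 0.0485, 0.06 and 0.0591 CPM, far below KRT81. KRT31, KRT33A, KRT33B and KRT35 had 0 counts in all 6 samples. KRT81 and KRT86 are close paralogs whose annotated spans overlap on opposite strands, and KRT6A, KRT6B and KRT6C are also near-identical, so the split of reads within each family is uncertain.

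Of 20 tested mesenchymal genes, 11 were 2-fold higher and 0 lower, with a median log2 difference of 3.38, or 2.85 with genes at 0 set to their bound. The list summed to 1672 to 1983 CPM in the KRT81-high and 536 to 619 CPM in the KRT81-low samples. FN1, fibronectin, had 1239, 1235 and 951 CPM in the KRT81-high samples against 192, 63.1 and 55.4 CPM in vehicle 1, DOX 2 and DOX 3. The collagen chain COL6A3 had 122 ± 10.7 CPM against 7.27 ± 3.39, and AXL 55.4 ± 7.07 against 0.208 ± 0.0816 (SD, n = 3 each). N-cadherin CDH2 had 325, 473 and 360 counts against 0, 0 and 1. TWIST1 had 5.68, 7.62 and 5.82 CPM against 0 counts in each KRT81-low sample, at least 38.0-fold higher. SNAI2 had 32.4 CPM against 0.228. Vimentin (VIM), however, overlapped between the sets with 28.9, 32.2 and 54.8 CPM against 29.4, 59.6 and 58.5 CPM, and ZEB1 had 0.336 CPM against 0.375.

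Epithelial genes were present throughout. Of 16 tested luminal epithelial genes, 5 were 2-fold higher and 0 lower, with a median of 0.20. KRT7, a simple-epithelial keratin, had 424, 563 and 440 CPM in the KRT81-high samples and 21, 7 and 3 counts in the others, a ratio of 847 (exact counting interval 597 to 1247). KRT19 had 44.6 CPM against 3.02 and the adhesion molecule EPCAM 238 ± 13.1 against 118 ± 4.99 (SD, n = 3 each). E-cadherin CDH1 was at 550 ± 50.02 CPM against 723 ± 22.9 CPM, and KRT8 overlapped, with 329, 374 and 493 CPM against 245, 399 and 393 CPM. CDH1 and CDH2 were therefore both detected in the KRT81-high samples.

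Prostate luminal genes fell short of a 2-fold difference in every case but 1. Of 19 tested, 0 were 2-fold lower and 1, PMEPA1, was higher, with a median log2 difference of -0.51 and a lowest of -0.62. The list summed to 3667 to 5620.5 CPM in the KRT81-high and 5582 to 7505 CPM in the KRT81-low samples. The prostate homeobox gene HOXB13 had 242, 255 and 286 CPM in the KRT81-high samples against 414, 386 and 387, or 66.1% of the other level, and the pioneer factor FOXA1 63.9%. These genes parted the sets without overlap at a moderate step. KLK3 had 150, 140 and 353 CPM against 190, 444 and 470 CPM, and for KLK3, KLK2 and TMPRSS2 the sets overlapped, with DOX samples the higher ones in each. KLK2 and KLK3 are paralogs that can share reads.

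A second group had a difference of like size. Cancer-testis antigens are germ-cell genes that many tumour lines express. Of 9 tested, 0 were 2-fold apart and 7 were lower without overlap in the KRT81-high samples, beside 14.8% of all tested genes that were lower without overlap. Their log2 differences ran from -0.62 to -0.37 with a median of -0.51, the same median as the prostate luminal list. MAGEA3 had 85.8, 80.5 and 91.8 CPM against 126, 116 and 122 CPM, and PAGE1 163, 132 and 197 against 213, 226 and 232. The 12 general housekeeping genes had a median of 0.12, with 0 genes 2-fold apart. In the plot of lists the prostate luminal and cancer-testis genes form a tight column left of 0, and the basal and mesenchymal genes a wide scatter to the right.

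**Figure D3:**
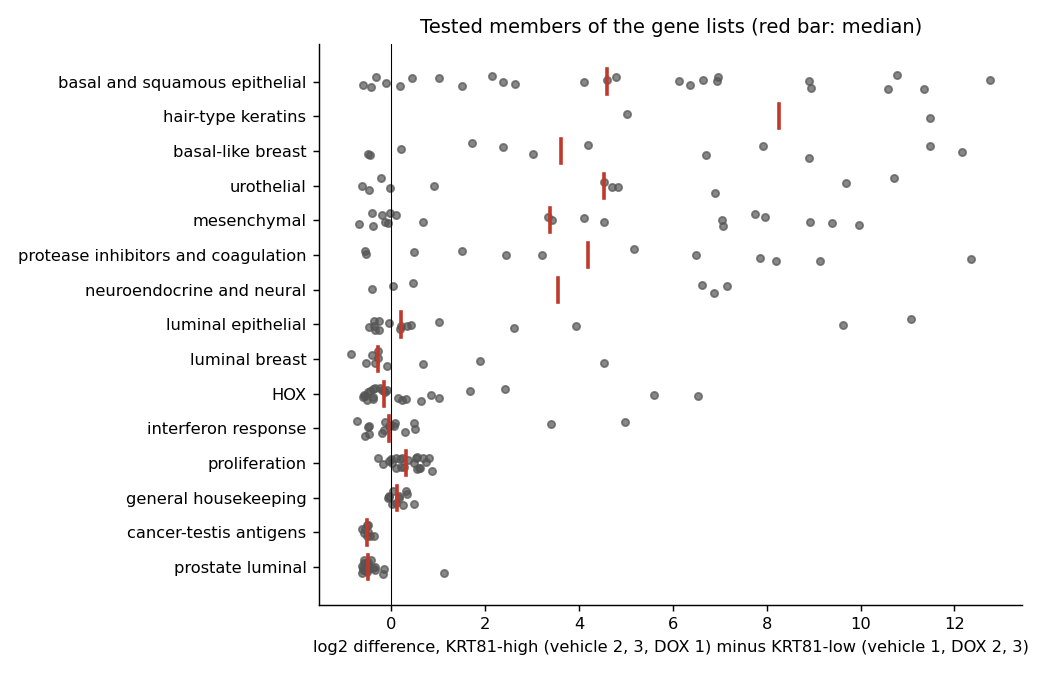
Log2 difference of the KRT81-high minus the KRT81-low samples (horizontal axis) for the tested genes of 15 marker lists, with 1 point per gene and a red bar at the list's median. The basal and squamous list has its median at 4.58 and the mesenchymal list at 3.38, whereas the prostate luminal and cancer-testis lists both sit at -0.51 with little scatter apart from PMEPA1 at 1.12.

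Lists of other epithelia were present in part. Of 20 listed basal-like breast genes, 12 were tested and 9 were 2-fold higher, including the markers KRT81 and SFRP1. Others were EGFR (345 ± 37.6 CPM against 95.3 ± 29.0, SD, n = 3 each), the homeobox gene EN1 (6.94 against 0.0524) and the forkhead gene FOXC1 (10.8 against 1.54). SOX10 and MIA had 0 counts in all samples, and ELF5 was at 52.2 CPM against 73.2 CPM. Of 16 listed urothelial genes, 11 were tested and 6 were higher, including the markers S100P and UCA1. Others were the nuclear receptor PPARG (28.5 against 1.01), GATA3 (9.01 against 0.348) and BMP5, which had 0 counts in the KRT81-low samples. KRT20 and KRT13 had 0 counts, and the uroplakins UPK2 and UPK3A, which line the bladder surface, overlapped between the sets with 1.55 against 1.83 and 1.26 against 1.59 CPM. No list of a single tissue was thus present with all its defining members.

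Genes of coagulation and its proteases were also higher. Of 12 tested genes in the list of protease inhibitors and coagulation, 9 were 2-fold higher and 0 lower, with a median log2 difference of 4.19, or 3.24 with genes at 0 set to their bound. F3 led, followed by the urokinase PLAU (14.6 ± 1.62 CPM against 0.0197 ± 0.0341, SD, n = 3 each), the Kunitz inhibitor TFPI2 (18.4 against 0.0521), the tissue plasminogen activator PLAT (36.2 against 0.360) and the urokinase receptor PLAUR (19.2 against 0.496). Urokinase and its receptor were therefore both higher in the KRT81-high samples.

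Of 20 listed neuroendocrine and neural genes 6 were tested, and PEG10, the granin SCG2 (37.8 CPM against 0.350) and CHGB (5.38 against 0.0397) were higher. CHGA, SOX2, MYCN, INSM1 and NEUROD1 had 0 counts in all 6 samples, and SYP overlapped at 4.21 against 3.64 CPM. Of 25 tested HOX genes, 5 were higher and 0 lower, with HOXC10 at 334, 540 and 399 counts against 8, 0 and 2 counts and HOXC11 at 4.91 against 0.0918 CPM. HOX genes mark position along the body axis. Of 11 imprinted genes 3 were higher (PEG10, its neighbour SGCE at 13.5 against 0.0759 CPM, and RTL1 at 4.56 CPM against 0 counts).

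Most genes of the lists for blood, endothelial, kidney, gut, lung, liver, pigment and germ cells were low, with a mean under 1 CPM in both sets for 69 of 88. Of 4 tested blood genes 2 were higher, CD14 with 1.15 CPM against 0.116 and CSF1R with 1.07 against 0.512, while CD3E and CD3D had 0 counts and PTPRC (CD45) had 0.0531 CPM. The blood list summed to 45.4 to 93.9 CPM in the KRT81-high and 65.7 to 126 CPM in the KRT81-low samples, mostly from LCP1 (57.4 against 101 CPM), an actin-bundling gene that carcinoma lines can also express. Of 4 tested endothelial genes 2 were higher, ROBO4 at 3.25 CPM and PECAM1 at 2.45 CPM, each against 0.0197, and VWF was at 4.22 against 7.20. Of 6 tested kidney tubule genes 3 were higher (ANPEP, CA9 and PAX8) and 2 lower (CUBN and PAX2, both at about 1 CPM or less), GGT1 was at 18.3 against 33.9 CPM, and UMOD had 0 counts. Of 5 gastrointestinal and pancreatic genes 1 was lower (MUC5AC, at 0.739 CPM in the KRT81-high samples), 0 were higher, and PDX1 was at 8.71 against 10.5 CPM. The lung list (1 gene), the hepatocyte list (2) and the melanocyte and germ cell list (4) held 0 genes 2-fold apart, and the lung gene was ABCA3, at 71.4 against 108 CPM. In the last of these lists MITF was at 13.0 against 21.7 CPM and PMEL at 5.23 against 8.23 CPM.

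The remaining lists had medians between -0.29 and 0.31, though some of their genes differed more. Luminal breast genes were 2-fold higher for 2 of 10 tested (GATA3 and ESR1), with a median of -0.29. Interferon response genes were higher for 2 of 17 (BST2 and IFI44L) and antigen presentation genes for 2 of 12 (the immunoproteasome subunits PSMB8 and PSMB9), with 0 lower in either. The largest log2 difference was 4.54 in the luminal breast list, 4.98 in the interferon list and 4.03 in the antigen presentation list. None of 22 proliferation genes was 2-fold apart, and their median was 0.31.

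Within the KRT81-high samples the 70 genes differed by a similar step between DOX 1 and the vehicle mean, but not between the vehicle samples. The level in DOX 1 over the mean of vehicle 2 and vehicle 3 had a median log2 of -0.21 over the 70 genes and an SD of 0.0869, and was above 0 for 1 gene. Over all 7611 genes with at least 20 CPM in each of these samples the median was 0.01 and the SD 0.330. Between vehicle 3 and vehicle 2 the 70 genes had a median log2 of 0.09 and an SD of 0.212, beside -0.02 and 0.180 over all. The genes share libraries and depth, so these are descriptions of 3 samples.

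The members were spread over the genome. By GENCODE on GRCh38, 67 of the 70 were protein coding and 3 were long noncoding RNAs, on 19 chromosomes, with at most 11 on 1 chromosome (chromosome 1). On chromosome 12 there were 6, of which 4 were keratins of the type II cluster: KRT81 (52285913 to 52291534), KRT6B (52446651 to 52452146), KRT6A (52487176 to 52493257) and KRT5 (52514575 to 52520530), all on the minus strand. KRT8 (52897187 to 52949954), at the end of the same cluster, overlapped between the sets as given above. S100A6 (153534599 to 153536244), S100A16 (153606886 to 153613145) and S100A14 (153614255 to 153616986) lie in 1 stretch of chromosome 1, with S100A4 (153543613 to 153550136) and S100A2 (153561108 to 153567890), which are not among the 70, between S100A6 and S100A16. Across chromosomes the share of tested genes that were 2-fold higher ran from 3.65% on chromosome 22 to 13.7% on chromosome 13, and the median log2 difference of genes with 20 CPM from -0.19 on chromosome 7 to 0.18 on chromosome 18.

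Promoters of the members were read because FOSL1, which binds AP-1 sites as a partner of JUN proteins, was itself a member. RefSeq promoters (GRCh38.p14) were matched for 50 of the 70 genes, and the AP-1 motif TGANTCA, which reads alike on both strands, was searched in the 250 bases before each start. It was present for 4 of 50 (8%), beside 6.60% of 27305 promoters in all and 4.09% of 11560 promoters of tested genes. The 4 were F3, LCN2, GSTP1 and CXCL8. The stretches below carry the motif in capitals and are shown for 3 members with over 100 CPM in the KRT81-high samples, on the strand of the gene.
F3, chr1:94541910-94542009, minus strand: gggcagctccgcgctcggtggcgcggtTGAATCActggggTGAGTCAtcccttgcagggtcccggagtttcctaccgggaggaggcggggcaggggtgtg
GSTP1, chr11:67583700-67583799, plus strand: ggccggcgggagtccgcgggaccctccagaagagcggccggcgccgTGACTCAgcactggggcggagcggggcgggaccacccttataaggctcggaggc
LCN2, chr9:128149355-128149452, plus strand: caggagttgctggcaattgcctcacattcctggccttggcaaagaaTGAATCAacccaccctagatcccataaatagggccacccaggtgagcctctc
In F3 the motif occurred at positions -223 and -210 from the annotated start, in GSTP1 at -66 and in LCN2 at -52. The promoters differ in base composition, with 34 CpG dinucleotides in the 250 bases of F3, 28 in those of GSTP1 and 4 in those of LCN2. The GSTP1 promoter is known for its methylation in LNCaP cells. In these counts GSTP1 had 1813, 3899 and 2607 counts in the KRT81-high samples and 3, 0 and 0 counts in the others, and methylation was not measured.

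DU-145 is the other prostate cancer line of the series, and its 6 samples were not used to choose the genes. All 12 samples were normalized together for this comparison, and n = 6 DU-145 samples of both treatments. Of the 70 genes, 51 (72.9%) had at least 1 CPM in each DU-145 sample, beside 74.2% of all tested genes, a share near the background. Among those 51 the mean of the KRT81-high samples ranged from 0.0533 to 175 times that of DU-145, with a median of 0.515. AXL was at 983 ± 116 CPM in DU-145 (SD, n = 6) and 52.4 CPM in the KRT81-high samples. CAV1 was at 410 ± 86.3 against 81.8, and S100A6 at 437 ± 46.9 against 105.

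Of the 7 markers, 4 were near 0 in DU-145. KRT81 was at 3.72 ± 1.79 CPM in DU-145 (SD, n = 6) and 650 CPM in the KRT81-high samples. The 4 were KRT5 (0.0788 CPM), S100P (0.0137), UCA1 (0.0394) and ANPEP (0.458), and the keratins KRT6A (0.121) and KRT6B (0 counts) joined them. In all, 10 of the 70 genes were under 0.5 CPM in every DU-145 sample, and no share of all tested genes was taken at this limit. F3 and SFRP1 were present in DU-145, at 57.7 ± 12.9 and 31.7 ± 6.96 CPM, below the 219 and 195 CPM of the KRT81-high samples.

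**Figure D4:**
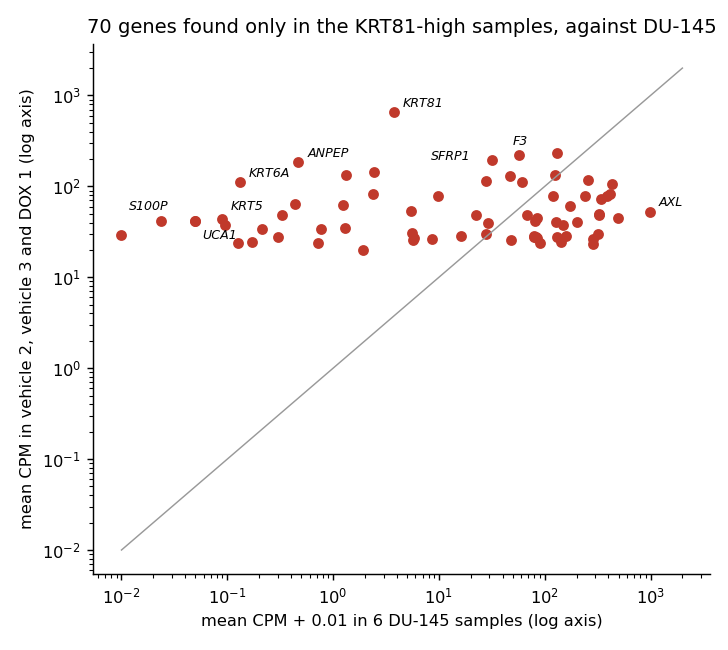
Mean CPM of the 3 KRT81-high LNCaP-AI samples against mean CPM + 0.01 of the 6 DU-145 samples (both axes log, 12 samples normalized together) for the 70 genes found only in the KRT81-high samples, with the line of equal levels. The genes spread over 5 decades in DU-145, from S100P, UCA1 and KRT5 near 0 at the left (KRT6B, at 0, is the leftmost point) to AXL at 983 CPM at the right, within a band of 20 to 650 CPM on the vertical axis.

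The reverse comparison used a lower limit in the KRT81-high samples than in DU-145, and no background share was taken for it. Its counts therefore cannot be read as a likeness to DU-145. At least 20 CPM in each DU-145 sample with less than 0.5 CPM in each KRT81-low sample was found for 125 genes. Of these, 104 (83.2%) had at least 0.5 CPM in each KRT81-high sample. The median over the 125 genes of the mean level in the KRT81-high samples was 9.77 CPM. Some of the strongest DU-145 genes were missing from the KRT81-high samples, in all 20 of the 125. The actin crosslinker FLNC was at 650 ± 131 CPM in DU-145 and 0.283 CPM in the KRT81-high samples, ANKRD1 at 325 ± 16.4 against 0.136, and the lung and thyroid factor NKX2-1 at 73.1 ± 23.7 against 0.0450 (SD, n = 6). VIM was at 734 CPM in DU-145 against 36.6 CPM.

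In DU-145 the members responded to DOX in both directions. Of 55 members tested there, 23 rose and 18 fell (edgeR's quasi-likelihood test with Benjamini-Hochberg adjustment, threshold 0.05), beside 26.3% and 25.3% of all 13644 genes tested. By the log2 ratio of DOX to vehicle, SNAI2 rose by 1.35 (standard error 0.20, adjusted p = 1.13e-05, edgeR). CAV1 fell by 0.52 (standard error 0.08, adjusted p = 1.39e-05, edgeR) and SFRP1 fell by 0.57 (standard error 0.09, adjusted p = 2.6e-05, edgeR). KRT81 had 0.54 (standard error 0.31, adjusted p = 0.154, edgeR).

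In LNCaP-AI cells the test of DOX against vehicle set each treatment group across the division. By edgeR's quasi-likelihood test, with the same threshold of 0.05 on the adjusted p, 1158 genes were higher (7.22%) and 885 lower (5.52%) with DOX. Among these were 0 of the 70 members, with 0 at an unadjusted p under 0.05 and 0 by DESeq2. The median standard error of the members' log2 fold change was 2.32, since each group held samples of both sets. With the division as a term, 4 of the 70 were lower and 0 higher (edgeR), beside 3258 lower and 3013 higher of all 16030 genes. An unadjusted p under 0.05 was reached by 15 of the 70 and by 7526 of all. Members had at most 10 counts in any KRT81-low sample, so their effect here rests on DOX 1 alone against vehicle 2 and vehicle 3. The division was found in these same counts, so a smaller residual spread with it as a term was fixed in advance. In the test without that term, leaving out DOX 2 or DOX 3 gave 1 gene higher and 0 lower over all. MUC1 had a log2 DOX effect of -2.50 by edgeR (adjusted p = 0.0139), with -1.999 in the KRT81-high and -2.32 in the KRT81-low samples.

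Whether DOX acted unequally in both sets was tested as an interaction of treatment and division. The sets were chosen from these same counts, and the sample pairs that give the test its spread are alike through that choice. Its p-values are therefore not independent of the choice and serve only to rank genes. This edgeR test called 117 genes (0.73%) at the same threshold, and the DOX effect on the log2 scale was higher in the KRT81-high samples for 82 and lower for 35. The split was 39 and 36 with DESeq2's size factors, 32 and 36 with upper-quartile normalization and 35 and 33 with DESeq2. For 116 of the 117 the DOX effect was smaller in size in the KRT81-high samples, as it was for 60.0% of all tested genes, and the exception, chosen after its values were seen, was HMGN5. Each set has a single sample of 1 treatment, DOX 1 and vehicle 1, and vehicle 1 also had the lowest share of mitochondrial counts (4.82% against 7.07% to 9.52%). The part of that library in the interaction was not tested. The spread behind the interaction's p-values comes only from vehicle 2 with vehicle 3 and DOX 2 with DOX 3. Without vehicle 2 the counts were 1120 and 260, without vehicle 3 they were 1534 and 294, and without DOX 2 or DOX 3 they were 22 and 29.

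ANXA1, annexin A1, had the smallest adjusted p among genes 2-fold apart across the division. It had 340, 312 and 477 CPM in vehicle 2, vehicle 3 and DOX 1, and 16.1, 228 and 241 CPM in vehicle 1, DOX 2 and DOX 3. DOX 1 thus stood above its vehicle samples by a log2 of 0.55, and DOX 2 and DOX 3 above vehicle 1 by 3.86 (difference -3.32, standard error 0.16, adjusted p = 1.15e-08, edgeR). The polyamine acetyltransferase SAT1 showed the same order, with 129, 136 and 148 CPM against 16.0, 61.6 and 62.4 CPM.

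FN1 moved the other way, with log2 changes of -0.38 and -1.70 (difference 1.32, adjusted p = 0.000442, edgeR), and so did the mitotic spindle gene ASPM with -0.49 and -1.57 (1.08, adjusted p = 0.002, edgeR). Of 22 proliferation genes, 21 had a smaller DOX effect in the KRT81-high samples, beside 60.0% of all tested genes. Their median log2 changes were -0.56 in the KRT81-high and -1.11 in the KRT81-low samples. The former rests on DOX 1 as the lone DOX sample and the latter on vehicle 1 as the lone vehicle sample. MKI67, a marker of cycling cells, had 489, 569 and 316 CPM in vehicle 2, vehicle 3 and DOX 1, and 502, 167 and 157 CPM in vehicle 1, DOX 2 and DOX 3 (difference 0.89, adjusted p = 0.00744, edgeR). CDKN1A, the p21 inhibitor of cell cycle kinases, rose alike, by 3.34 and 3.55 (difference -0.21, adjusted p = 0.681, edgeR). Of the 70 members only EFEMP1 was called (adjusted p = 0.0452, edgeR), and it rests on 10 counts in vehicle 1 against 0 in DOX 2 and DOX 3.

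**Figure D5:**
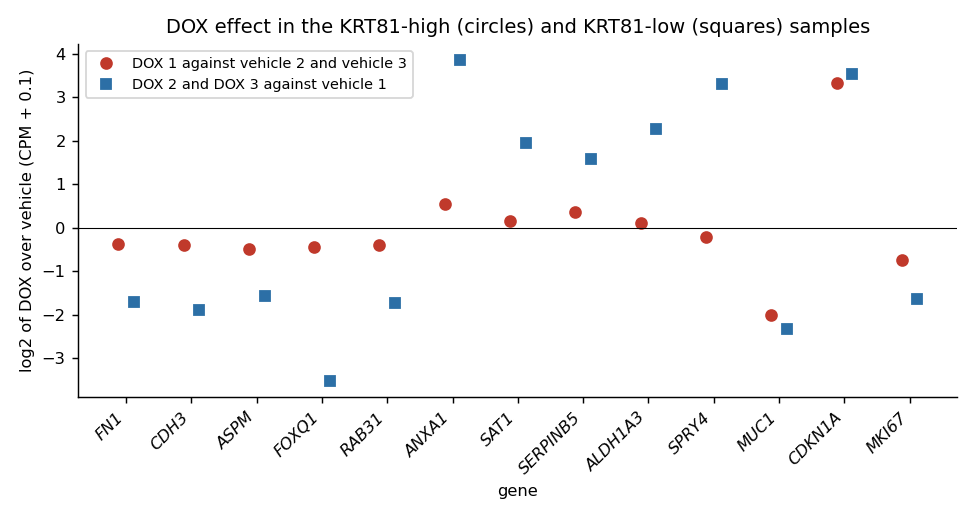
Log2 of DOX over vehicle, from CPM + 0.1, within the KRT81-high samples (red circles, DOX 1 against vehicle 2 and vehicle 3) and within the KRT81-low samples (blue squares, DOX 2 and DOX 3 against vehicle 1), for the 10 genes named by the interaction test and for MUC1, CDKN1A and MKI67. For the 10 genes the circles lie within 0.55 of 0 and the squares far from it, whereas MUC1 and CDKN1A have both symbols at a like height.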

How the data were processed

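The authors isolated RNA from LNCaP-AI and DU-145 cells (3 vehicle and 3 DOX samples each), made stranded mRNA libraries and deposited unnormalized counts for each gene. The submitters' processing notes name STAR 2.7.0, CASAVA 1.8.2, DESeq2 1.24.0 and GRCh38.p7, whereas the counting tool and its strand setting are not given in the sources used here. Symbols were matched for 56993 of 58037 genes, and positions are from GENCODE on GRCh38.

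The members, lists and limits were chosen with earlier results of these data known. Counts were analysed with edgeR 4.0.16 (R 4.3.3, TMM, quasi-likelihood test, Benjamini-Hochberg adjusted p under 0.05) after a filter of 10 counts in 3 of 6 samples. The division was fitted with treatment as a covariate and not tested. DOX was tested per line, and its interaction with the division over 6 samples with 1 sample in each of a pair of cells, assumed to vary like the others. Levels are TMM-normalized CPM, within-set changes use log2(CPM + 0.1), and ratios are of summed counts scaled by library size with exact 95% intervals. Intervals and the floor of 3 counts per library cover counting error only. P-values of the DOX tests measure the spread between the triplicate cultures, which may be technical. For the interaction they rest only on the spread of vehicle 2 with vehicle 3 and of DOX 2 with DOX 3. DOX 1 and vehicle 1 are fitted exactly there. Those pairs were the closest LNCaP-AI samples, at a chi-square of 9.21 and 2.38 per degree of freedom against 33.0 or more. DU-145 depth was 10423437 to 13544153 counts.

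Genes named are the markers, the 25 members with the highest CPM, the 10 largest differences among genes detected in all samples, up to 6 members per list with those at 0 counts, defining markers, the 5 smallest adjusted p per direction of the interaction, and genes beside the limits. Genes named beyond this rule were chosen after their values were seen. Some genes under this rule are not reported here. On simulated counts with 200 genes changed by a log2 of 2, 80% were recovered with 16 false calls among 15486 genes for DOX in LNCaP-AI, 100% with 4 among 15777 for the interaction and 100% with 22 among 13436 for DU-145. The changed genes were well counted in every sample, so these rates do not cover genes with few reads, such as MUC1 or the members found only in the KRT81-high samples. Simulated noise was independent between samples, with no division in the DOX test and no deviating lone sample in the interaction. Alternatives were DESeq2 1.42.0, other size factors, filters, limits and covariates, and leaving out each sample. Replicate numbers come from the titles. Same-numbered LNCaP-AI samples lie on opposite sides of the division, so their pairing could be checked only within the sets, where deviations of replicates 2 and 3 had a correlation of -0.0746 between vehicle and DOX across genes, and replicate 1 could not be checked. DU-145 samples had correlations of 0.150, -0.110 and 0.0898. Replicate numbers were not taken as pairs.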

Additional observations from a re-analysis of the deposited data

Results flagged for a closer look

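The 10 genes below were singled out because their DOX effect differed between the KRT81-high and the KRT81-low samples in edgeR's quasi-likelihood test of the interaction (Benjamini-Hochberg adjusted p over 16030 genes), among genes 2-fold apart across the division. Values are differences in the log2 fold change of DOX, KRT81-high minus KRT81-low. They were positive for FN1 (1.32, adjusted p = 0.000442), the cadherin CDH3 (1.49, adjusted p = 0.000703), ASPM (1.08, adjusted p = 0.002), the forkhead factor FOXQ1 (3.56, adjusted p = 0.002) and RAB31 (1.36, adjusted p = 0.002), all by edgeR. They were negative for ANXA1 (-3.32, adjusted p = 1.15e-08), SAT1 (-1.79, adjusted p = 3.3e-05), the serpin SERPINB5 (-1.23, adjusted p = 0.00271), the retinaldehyde dehydrogenase ALDH1A3 (-2.24, adjusted p = 0.00364) and SPRY4, an inhibitor of receptor tyrosine kinase signalling (-4.39, adjusted p = 0.00429), also by edgeR. SPRY4 had 20.5, 24.5 and 19.3 CPM in vehicle 2, vehicle 3 and DOX 1 and 0.0971, 1.74 and 1.95 CPM in vehicle 1, DOX 2 and DOX 3, so its low value in vehicle 1 rests on few reads. Vehicle 1 is the lone vehicle sample of the KRT81-low set, so the p-values hold no spread between vehicle samples of that set. The sets and the limit to genes 2-fold apart came from the same counts, so these p-values only rank genes. The part of vehicle 1 in these differences was not tested.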

How the results depend on the processing

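The number of genes found only in the KRT81-high samples, 70, became 236 with a limit of 5 CPM in them, 24 with 50 CPM and 7 with 0 counts required in the others. Other limits and scalings gave 68 to 90, and leaving out each sample gave 71 to 79. Leaving out a sample can only loosen the limits, apart from a small rescaling. That the same 70 genes remained each time was therefore fixed in advance. The opposite count was 0 to 1 when each sample was left out. Genes 2-fold higher numbered 2516 without a filter and 711 to 1521 when each sample was left out, with 731, 711 and 804 without vehicle 2, vehicle 3 and DOX 1, where a filter of 3 samples keeps fewer genes seen only in the KRT81-high set. Genes 2-fold lower numbered 435 without a filter, 5 with at least 1 CPM in 3 samples, 0 at 4-fold and 26 to 100 when each sample was left out (100 without vehicle 1). Genes with 20 CPM in the KRT81-low samples that were 2-fold lower numbered 0 to 1 when each sample was left out, an alternative chosen after seeing the data.

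For DOX in LNCaP-AI, DESeq2 called 1897 higher and 1620 lower and the division as a term 3013 and 3258. The division was found in the same counts, so the rise with it as a term is no independent result. With the replicate block 0 genes were higher and 0 lower (2909 at an unadjusted p under 0.05 in edgeR's test, and 7526 with the division as a term), and MUC1 and CDKN1A lost their calls. The same-numbered samples of the labels lie on opposite sides of the division, and in DU-145 the block gave 3516 and 3408. When each sample was left out the counts were 1 to 1933 higher and 0 to 1605 lower, with 1 and 0 both without DOX 2 and without DOX 3, where MUC1 also lost its call. MUC1 passed the filter only through the vehicle samples, so it was not tested when any of them was left out. For the interaction, the higher count of 82 was 35 with DESeq2, 39 with DESeq2's size factors and 32 with upper-quartile normalization, and the lower count of 35 was 84 without a filter. Leaving out single samples gave 22 to 1534 higher and 29 to 294 lower. Without vehicle 1 or DOX 1 it could not be fitted, and a replicate block cannot be told apart from it. The cause of these moves was not tested. For DU-145 all counts stayed within 1.5 times. Genes with few reads in the KRT81-low samples have wide intervals, so depth limits how exact their ratios are.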

Other observations

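Nuclear copies of mitochondrial genes were chosen after their values were seen, because MTND1P23 had the largest log2 difference (7.48) among genes with at least 0.5 CPM in all 6 samples and 20 CPM on the higher side. MTND1P23 had 2405, 4927 and 2847 counts in vehicle 2, vehicle 3 and DOX 1 and 15, 15 and 11 counts in vehicle 1, DOX 2 and DOX 3. MTND4P12 had 1030, 1857 and 1235 counts against 12, 12 and 11 (log2 difference 6.45), and MTCO1P40 a log2 difference of 2.74. Of 9 tested copies these 3 were 2-fold higher and 0 lower, while MTATP6P1 was at 628 ± 45.4 CPM against 576 ± 190 CPM (SD, n = 3 each). Of 20 tested mitochondrial genes 0 were 2-fold apart. Near-identical copies can share reads with the mitochondrial genes, so their counts are uncertain.

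The processed pseudogene CTHRC1P1 was the single gene with the opposite pattern when DOX 3 was left out, and was also chosen after its values were seen. It had 2496, 0 and 0 counts in vehicle 1, 2 and 3 and 2, 3205 and 0 counts in DOX 1, 2 and 3, so vehicle 1 and DOX 2 held it and DOX 3, otherwise the sample closest to DOX 2, did not.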
